A study of Mus musculus with 29 samples.

Results

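The serpins are a superfamily of proteins that mostly inhibit serine proteases, and DNA methylation over their genes was examined here in the lungs of mice with and without allergic airways disease (AAD). The members were chosen by name: every autosomal window of the deposited table whose gene name begins with Serpin, a clade letter from a to i and a digit. This gave 222 of 260686 windows, which carry the names of 64 of the 39260 gene names in the table. Serpina7, on the X chromosome, was outside the rule. Serpind1, Serpinb3c, Serpina1d and Serpina3l-ps have no window under their own name, since the windows over them are named for Pi4ka, Serpinb3b, Serpina1b and Serpina3m.

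Whole-genome enzymatic methyl-sequencing (WGMS), a method that uses enzymes in place of bisulfite to tell methylated cytosines apart, was applied to lung DNA (labelled RML) of BALB/c offspring described as 13-week-old females. The 4 groups were Sham (n = 7, dams given saline, offspring not challenged), Sham-OVA (n = 7, the same dams' treatment and offspring sensitised and challenged with the egg protein ovalbumin, OVA), PM (n = 7, dams given fine particulate matter, offspring not challenged) and PM-OVA (n = 8, both). The labels of PM-OVA replicates 7 and 8 carry a library name with Rel, whose meaning is not given, and both were kept as separate samples: they differed by 1.76 points per window on average, where other PM-OVA pairs differed by 1.55 to 2.001 points. Dams were dosed through the nose before mating, in gestation and up to weaning, so the offspring inhaled no particles themselves, and the control challenge was nebulised saline. Each value is a percentage of DNA methylation (%DNAm) averaged over a window of about 50 CpG dinucleotides, with no read counts, so the depth behind a value is unknown here and the precision of a comparison rests on the number of libraries.

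A serpin presents an exposed loop to its target protease, and on cleavage traps the enzyme in an irreversible complex. In the lung, alpha-1 antitrypsin and its relatives restrain neutrophil elastase, whereas other serpins control plasmin formation, coagulation, complement and granzymes. Several members inhibit no protease and act instead as hormone carriers, collagen chaperones or secreted factors. Methylation of CpGs is generally low at CpG-rich promoters and high elsewhere in mammalian DNA.

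The Serpin genes lie mostly in clusters, with 66 windows of 26 clade A genes on chromosome 12, and clade B genes on chromosomes 1 and 13. Promoters of these genes are poor in CpGs: the median RefSeq promoter of 300 bases held 3 CpGs over 58 Serpin promoters (50 genes), against 7 over all 32851 promoters, and 10.3% of Serpin promoters held at least 10 CpGs against 43.5% of all. Sequences from members that differ in their response to OVA are printed here (GRCm38.p6, gene strand, 5′ to 3′), with each CpG in capitals. Each printed stretch is only part of a window of about 50 CpGs. The methylation value of a window therefore rests mostly on CpGs outside the printed stretch. The Serpinh1 promoter (chr7:99353190-99353489, minus strand, 16 CpGs) lies in 2 windows that rose after OVA, the Serpinb2 promoter (chr1:107511173-107511472, plus strand, 1 CpG) in a window that fell, and the Serpini1 promoter (chr3:75557243-75557542, plus strand, 15 CpGs) in a window whose difference did not pass the test. The Serpinf1 stretch (chr11:75416107-75416406, minus strand, 13 CpGs) holds the most CpGs of any 300 bases in the window with the largest fall.
Serpinh1 promoter: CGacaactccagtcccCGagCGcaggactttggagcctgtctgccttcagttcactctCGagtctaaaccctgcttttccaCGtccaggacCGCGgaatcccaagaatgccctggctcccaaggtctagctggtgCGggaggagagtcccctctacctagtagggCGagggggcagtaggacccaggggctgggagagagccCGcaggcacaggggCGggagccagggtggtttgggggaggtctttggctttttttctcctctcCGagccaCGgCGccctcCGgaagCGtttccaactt
Serpinb2 promoter: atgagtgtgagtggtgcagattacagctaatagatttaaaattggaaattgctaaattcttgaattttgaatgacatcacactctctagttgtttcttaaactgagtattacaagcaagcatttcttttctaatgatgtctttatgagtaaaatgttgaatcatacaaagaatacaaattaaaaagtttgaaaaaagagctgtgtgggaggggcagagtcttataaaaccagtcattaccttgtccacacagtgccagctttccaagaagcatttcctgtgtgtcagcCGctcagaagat
Serpini1 promoter: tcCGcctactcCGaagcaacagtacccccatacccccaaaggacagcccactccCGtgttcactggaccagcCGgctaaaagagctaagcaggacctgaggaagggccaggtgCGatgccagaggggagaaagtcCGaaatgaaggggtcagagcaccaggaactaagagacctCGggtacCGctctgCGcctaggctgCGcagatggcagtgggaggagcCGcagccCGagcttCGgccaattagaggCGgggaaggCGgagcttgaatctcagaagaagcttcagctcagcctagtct
Serpinf1 stretch: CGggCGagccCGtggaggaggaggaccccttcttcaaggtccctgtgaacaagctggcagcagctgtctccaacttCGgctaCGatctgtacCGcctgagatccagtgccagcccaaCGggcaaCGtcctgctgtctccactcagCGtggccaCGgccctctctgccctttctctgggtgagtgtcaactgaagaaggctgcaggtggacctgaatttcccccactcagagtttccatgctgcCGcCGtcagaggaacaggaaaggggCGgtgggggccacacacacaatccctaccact
The TATA motif TATAAA occurs in the Serpinb2 promoter, and on either strand in 25.9% of Serpin promoters and in 13.6% of all promoters. The GC box GGGCGG occurs in the Serpinh1 promoter and in the Serpinf1 stretch, in 13.8% of Serpin promoters and in 35.7% of all. These are matches of letters and not measured binding sites.

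In unchallenged Sham lungs the Serpin windows were mostly methylated, with a median of 72.0% against 76.9% for all 259167 tested windows. Only 16 Serpin windows (7.21%) had a mean under 50%, against 14.4% of all windows, and 51 (23%) reached 80%, against 38.5% of all. Among the 58 Serpin windows that hold the annotated gene start, 10.3% were under 50% and none was under 10%, whereas 36.4% of the 33550 gene-start windows of the whole table were under 50%. Serpin windows were also longer, with a median of 8154 bp against 4788 bp, because they hold 6.39 CpGs per kb against 10.5 in all windows.

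The few unmethylated Serpin windows belong to the CpG-rich starts. A window of 416 bp next to the start of Serpinb6a, with 324 untranslated exonic bases, had the lowest mean of all, at 0.219% ± 0.46 in Sham, 0.301% ± 0.58 in Sham-OVA, 0.0458% ± 0.0783 in PM and 0.18% ± 0.186 in PM-OVA (SD). Serpinb6a encodes an intracellular inhibitor of granule proteases, and this window also overlaps Ripk1. A window of 386 bp in Serpine2, which encodes protease nexin 1, was at 0.245% in Sham and 0.425% in PM-OVA, and a RefSeq promoter of the gene, with 41 CpGs, overlaps it. The highest Sham mean was 92.3%, in a window of Serpine3.

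Library means over the Serpin windows were 69.4% ± 0.604 in Sham (SD, n = 7), 68.8% ± 0.817 in Sham-OVA (n = 7), 69.8% ± 0.569 in PM (n = 7) and 68.4% ± 0.504 in PM-OVA (n = 8). Over all tested windows the corresponding means were 69.1, 68.8, 69.4 and 68.4%. All 222 Serpin windows were tested and 9 single values were missing. Sham replicate 1 stood apart from its label, since 1224 of 1230 windows of the Y chromosome had a value in it against 29 to 46 in the other 28 libraries, and the main levels and counts and a few leading differences of the Sham comparison are also given without it. Without Sham replicate 1 the mean of the other 6 Sham libraries over the Serpin windows was 69.3% ± 0.661 (SD), the median Serpin window was at 71.8% (76.9% over all windows), and 16 windows were under 50% and 51 at or above 80%.

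OVA challenge was compared with saline in Sham offspring to find the methylation differences of AAD. A window was called a differentially methylated region (DMR) where the limma adjusted p was under 0.05 (Benjamini-Hochberg over all tested windows) and its 2 group means lay 10 percentage points or more apart. A single Serpin window, in Serpinf1, was a DMR in Sham offspring and it fell, whereas 0.775% of all tested windows were DMRs (0.479% higher and 0.296% lower). Without a minimum difference, 17 Serpin windows rose (7.66%) and 29 fell (13.1%), or 46 in all (20.7%), where 13.3% of all windows rose and 22.3% fell (35.6% together). The median Serpin difference was -0.786 points, against -0.414 for all windows, and 148 of 222 windows (66.7%) had a lower mean after OVA, against 59.1% of all. With only the Sham and Sham-OVA libraries in the fit, 19 windows fell in place of 29 (8.56%, against 19.3% of all windows in that fit). Without Sham replicate 1 there were 0 DMRs, 15 windows rose (6.76%, against 12.4% of all windows) and 28 fell (12.6%, against 20.5%). Of the named calls in Sham, 1 was lost without it, at the Serpina5 start. The differences at the starts were then 7.87 points for Serpinh1, 8.38 points for Serping1 and -6.33 points for Serpinb2. Among the counts by role, gene and position given further on, those that changed without it were 4 rises in place of 5 for coagulation and complement, 3 in place of 4 for plasminogen activation, 8 falls in place of 9 for the Serpina1, Serpina3, Serpinb1 and Serpinb6 families, 2 rises and 4 falls in place of 3 and 5 at gene starts, 9 genes with a rise in place of 10, and 26 windows lower in both comparisons in place of 28.

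In PM offspring the same Serpinf1 window was the only DMR, against 0.584% of all windows (0.321% lower and 0.263% higher), and 8 Serpin windows rose (3.6%) while 85 fell (38.3%). The shares over all windows were 9.26% higher and 34.8% lower, or 44.1% together. The median Serpin difference was -1.57 points against -1.03 for all windows. Without PM-OVA replicates 7 and 8 the same DMR was called, 7 windows rose (3.15%, against 7.54% of all windows) and 78 fell (35.1%, against 32.2%). Both comparisons were sensitive to the overall level of each library. After centring each library, 26 Serpin windows rose and 19 fell in Sham offspring (42.2% of calls lower, against 63% uncentred), and 23 rose and 29 fell in PM offspring (55.8% lower, against 91.4%). The centred shares of Serpin windows were 11.7% higher and 8.56% lower in Sham and 10.4% and 13.1% in PM offspring, where 18.3% and 17.8% of all windows in Sham and 18.9% and 18.7% in PM offspring passed.

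**Figure D1:**
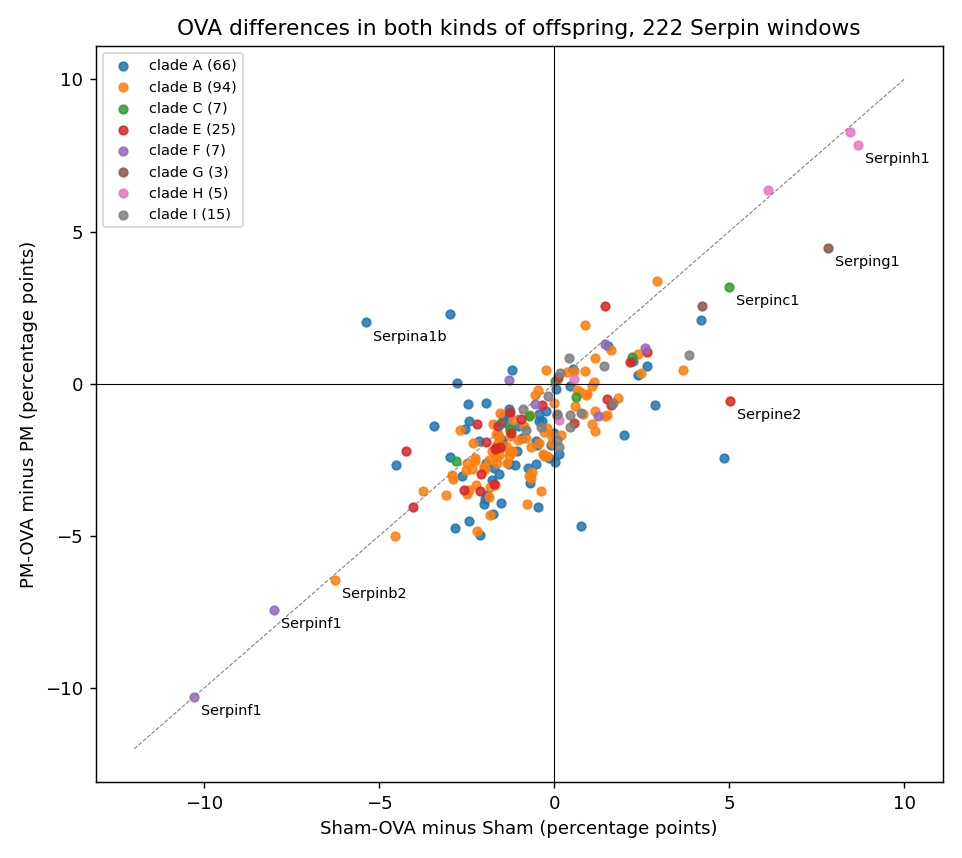
Each point is 1 of the 222 Serpin windows, coloured by clade, with the OVA difference in Sham offspring on the horizontal axis and in PM offspring on the vertical axis (both in percentage points of %DNAm). The dashed line marks equal differences; of the 4 Serpinf1 windows 1 lies near -10 on both axes and 1 at -8.02 in Sham and -7.44 in PM offspring, 3 of the 5 Serpinh1 windows lie between 6 and 9, and most other windows, including the remaining windows of these genes, lie within 5 points of 0.

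Across the 222 windows the OVA difference in Sham and in PM offspring, which share no library, had a Pearson r of 0.776 and a Spearman rho of 0.689, against 0.879 and 0.843 over all tested windows. Neighbouring windows of a gene are not independent, so these values are descriptive. The direction was the same in 179 windows (80.6%), against 81.8% of all tested windows. A total of 34 Serpin windows passed the test in both kinds of offspring, of which 6 were higher in both and 28 lower in both, and 0 changed in opposite directions. Over all windows 27.3% passed in both, 7.57% higher and 19.7% lower, against 15.3%, 2.7% and 12.6% of the Serpin windows.

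The non-inhibitory serpins held the largest differences in both directions. Serpinf1 (ENSMUSG00000000753) encodes pigment epithelium-derived factor, a secreted protein that inhibits vessel growth. Its DMR (chromosome 11, 75414166 to 75416414, 2249 bp, GRCm38) lies inside the gene with 721 exonic bases, and holds the Serpinf1 stretch printed earlier. In Sham libraries it ranged from 64.0 to 69.7% (median 65.5%), and in Sham-OVA from 51.6 to 58.7% (median 56.8%). In PM libraries it ranged from 60.8 to 69.2% (median 65.7%), and in PM-OVA from 51.3 to 57.0% (median 54.6%). Every OVA library was below every unchallenged library in both kinds of offspring. The group means were 65.9% ± 1.93 in Sham, 55.6% ± 2.81 in Sham-OVA, 64.7% ± 3.08 in PM and 54.4% ± 1.75 in PM-OVA (SD). The difference was -10.3 points in Sham (log2 ratio -0.61, SE 0.077, limma adjusted p = 7.63e-07) and -10.3 points in PM offspring (log2 ratio -0.61, SE 0.074, limma adjusted p = 3.35e-07).

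The Serpinf1 DMR sits just past the minimum difference. Leaving out single libraries gave differences from -10.8 to -9.63 points in Sham and from -10.9 to -9.53 in PM offspring, with every adjusted p at or under 3.88e-06. It was under 10 points in Sham offspring without Sham replicate 1 or Sham-OVA replicates 1, 3 or 6, and in PM offspring without PM replicates 5 or 6 or PM-OVA replicate 6. The next window towards the 3′ end (75410189 to 75414165), named here after its values were seen, fell from 78.3 to 70.3% in Sham (-8.02 points, limma adjusted p = 3.25e-07) and from 77.8 to 70.4% in PM offspring (-7.44 points, limma adjusted p = 3.78e-07), again without overlap of the groups. The fall did not extend to the 5′ side of the gene. The window that holds the Serpinf1 gene start, at 85.4% in Sham, differed by -1.29 points in Sham (limma adjusted p = 0.244) and 0.122 points in PM offspring (limma adjusted p = 0.863).

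Serpinh1 (ENSMUSG00000070436) encodes HSP47, a chaperone that binds procollagen in the endoplasmic reticulum, and it moved the other way. The window inside the gene start (chromosome 7, 99351578 to 99353223, with 386 untranslated exonic bases) ranged from 3.53 to 9.999% in Sham (median 7.14%) and from 12.8 to 19.7% in Sham-OVA (median 15.2%). In PM libraries the range was 4.64 to 11.1% (median 8.87%), and in PM-OVA 11.9 to 22.4% (median 15.8%). The groups did not overlap in either kind of offspring, and the means rose by 8.68 points in Sham (limma adjusted p = 4.5e-06) and by 7.83 points in PM offspring (limma adjusted p = 1.77e-05). On the log2 scale of methylated to unmethylated percent these were the widest Serpin differences, at 1.22 (SE 0.17) and 1.04 (SE 0.17).

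The adjoining Serpinh1 window (99353224 to 99356534), which holds the gene start base and 2000 bp of promoter, rose from 38.1% ± 3.16 to 46.6% ± 2.64 in Sham (SD, n = 7 and 7, limma adjusted p = 2.41e-05) and from 37.1% ± 1.36 to 45.3% ± 2.87 in PM offspring (SD, n = 7 and 8, limma adjusted p = 1.45e-05). Its groups did not overlap either. Most of the CpG-rich promoter printed above belongs to this window. A further Serpinh1 window, from 99348987, which was named after its values were seen, rose by 6.11 and 6.38 points (limma adjusted p = 0.0018 and 0.00063). The 2 windows at the 3′ end differed by 0.148 and 0.568 points in Sham and by -1.2 and 0.158 points in PM offspring, and did not pass the test. Other non-inhibitory members showed smaller differences: Serpinb5 (maspin) had 1 of 4 windows lower in PM offspring, and Serpina6, the corticosteroid-binding globulin, had no window that passed the test in either.

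**Figure D2:**
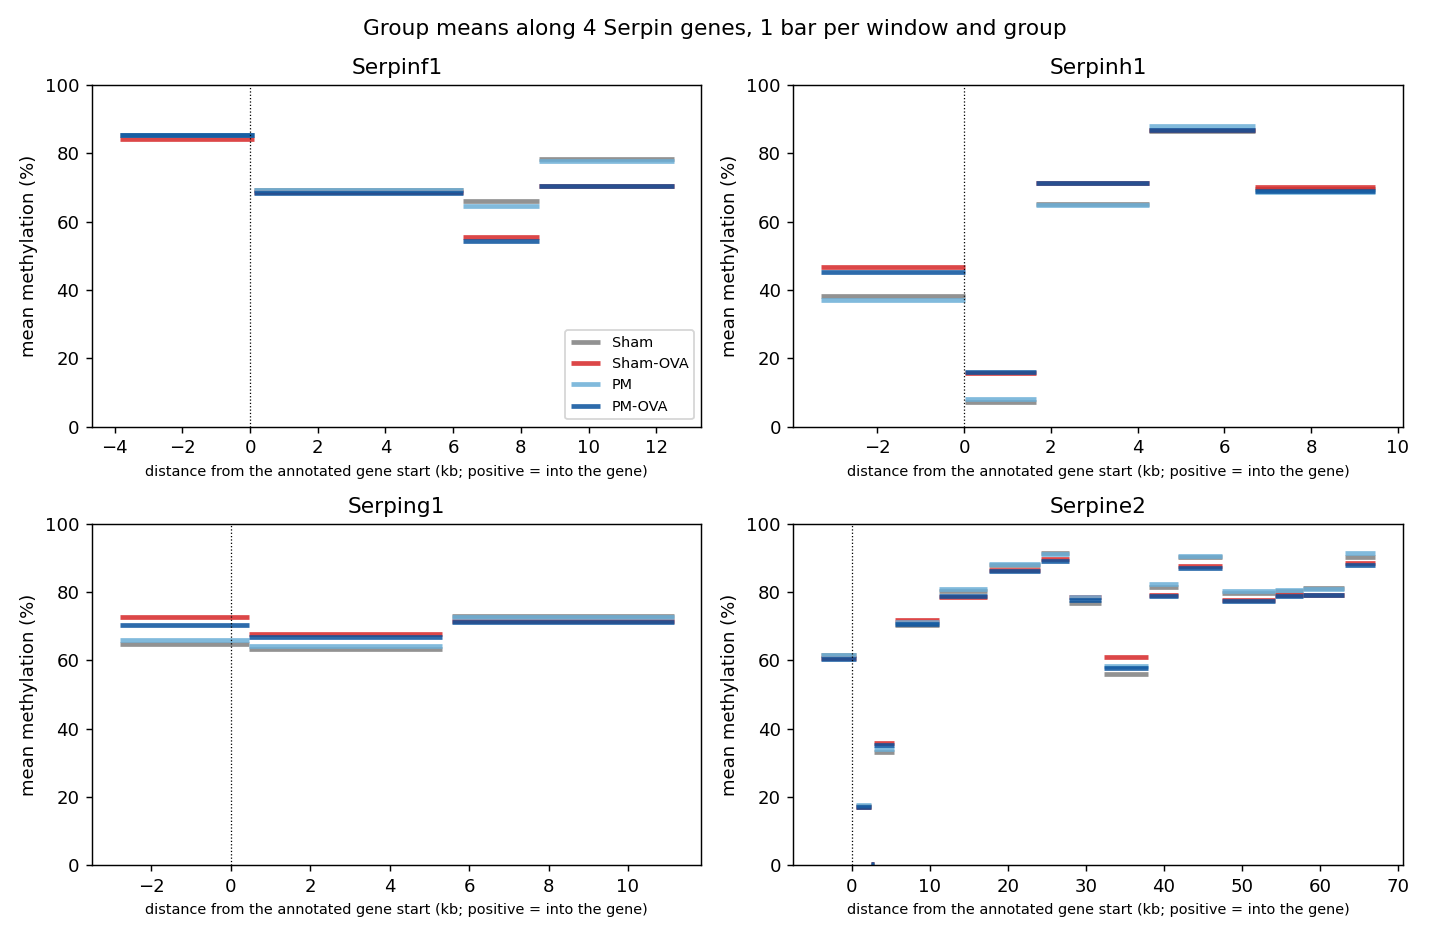
Mean methylation (%DNAm, vertical axis) of each window along Serpinf1, Serpinh1, Serping1 and Serpine2, drawn as bars at their distance in kb from the annotated gene start (dotted line, positive into the gene) and coloured by group. The Serpinf1 bars separate over the 3′ part of the gene, the Serpinh1 bars at and just inside the start, and the Serping1 bars around the start, with OVA groups lower in the first gene and higher in the other two.

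Serpins of coagulation and complement had 5 windows that rose and 1 that fell in Sham offspring, of 15, and 2 that rose and 4 that fell in PM offspring. These are 33.3% and 6.67% of them in Sham (13.3% and 22.3% of all windows) and 13.3% and 26.7% in PM offspring (9.26% and 34.8% of all windows). Serping1 (ENSMUSG00000023224) encodes C1 inhibitor, which blocks the first complement proteases and plasma kallikrein. The window at its start (chromosome 2, 84774998 to 84778240, 2000 bp of promoter) ranged from 61.7 to 68.2% in Sham (median 64.9%), from 67.6 to 76.1% in Sham-OVA (median 72.8%), from 62.2 to 67.2% in PM (median 66.8%) and from 65.98 to 73.96% in PM-OVA (median 70.9%). The groups overlapped in both kinds of offspring, with the OVA libraries mostly higher. The rise was 7.81 points in Sham (limma adjusted p = 5.89e-05) and 4.47 points in PM offspring (limma adjusted p = 0.00756), and the test of the difference between these did not pass (-3.35 points, limma adjusted p = 0.708).

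Serpinc1, which encodes antithrombin, had a window just inside the gene (chromosome 1, 160978749 to 160984451, with 3022 exonic bases) that rose from 62.5 to 67.5% in Sham (4.99 points, limma adjusted p = 0.00195) and from 63.7 to 66.9% in PM offspring (3.17 points, limma adjusted p = 0.0289), a call lost in 5 of the fits that left out 1 library, with an adjusted p of 0.0761 without PM replicate 6. Serpina5, the protein C inhibitor, rose by 2.41 points at its start in Sham (limma adjusted p = 0.0496), a call lost in 21 of the 29 fits that each left out 1 library, with an adjusted p of 0.157 without Sham-OVA replicate 6. Its other window fell by 4.5 points in PM offspring (limma adjusted p = 0.000983). Serpina10, the protein Z-dependent inhibitor, fell in all 3 windows in PM offspring and in 1 in Sham, where a window from 103617494 fell by 4.52 points (limma adjusted p = 0.00209). Its call after OVA in PM offspring was lost in 9 of the fits that left out 1 library (adjusted p up to 0.0899, without PM-OVA replicate 5) and with libraries centred (adjusted p = 0.149), and the Serpinc1 call in 5 (adjusted p up to 0.0761, without PM replicate 6). Of the named calls in PM offspring, that of Serpinc1 was also lost without PM-OVA replicates 7 and 8 (3.20 points, adjusted p = 0.0504), and no other was. In the Serpina10 window from 103617494, 81.1% of 100-base stretches occur elsewhere in the genome.

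Of the 27 windows of serpins of plasminogen activation, 9 fell (33.3%, against 22.3% of all windows) and 4 rose (14.8%, against 13.3%) in Sham, and 12 fell (44.4%, against 34.8%) and 0 rose (against 9.26%) in PM offspring. Serpinb2 (ENSMUSG00000062345), the type 2 plasminogen activator inhibitor made by stimulated macrophages, fell at its start (chromosome 1, 107504346 to 107515674, with 2000 bp of promoter). Values ran from 70.5 to 75.6% in Sham (median 73.1%), 64.2 to 71.4% in Sham-OVA (median 67.5%), 72.0 to 77.9% in PM (median 73.8%) and 65.7 to 69.6% in PM-OVA (median 68.2%). The groups overlapped in Sham and did not in PM offspring, and the differences were -6.26 points (limma adjusted p = 3.39e-05) and -6.44 points (limma adjusted p = 7.79e-06). The window that follows it, from 107515775 and named after its values were seen, fell by 4.54 and 5.01 points (limma adjusted p = 0.0002 and 3.1e-05).

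**Figure D3:**
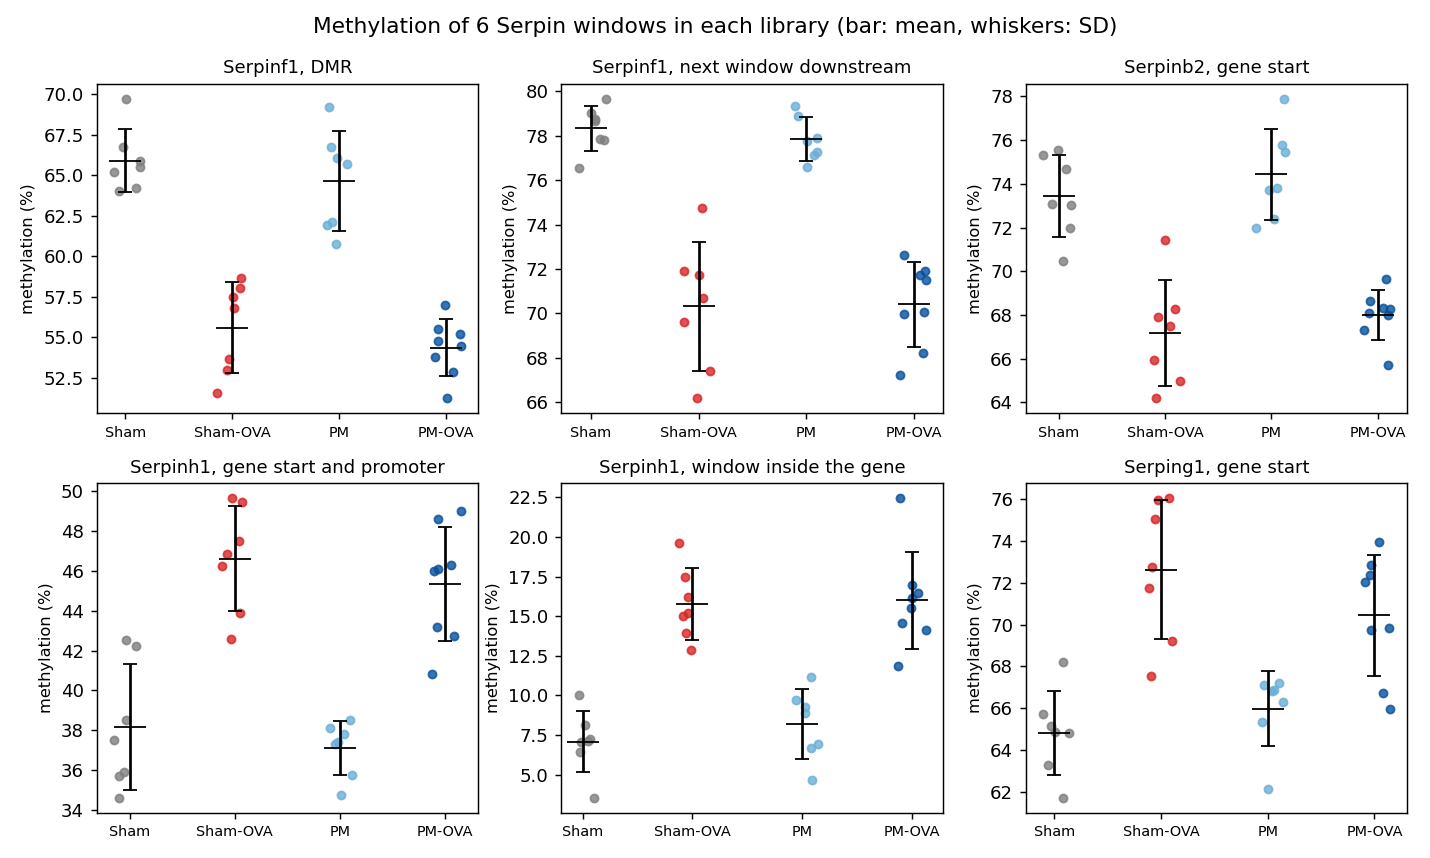
%DNAm of 6 windows of Serpinf1, Serpinb2, Serpinh1 and Serping1 in each of the 29 libraries (points), by group, with the mean (bar) and SD (whiskers); the vertical axes differ between panels and do not start at 0. Sham-OVA and PM-OVA points lie below the unchallenged points in the upper row and above them in the lower row, with overlap in the Serping1 panel and, for Sham offspring, in the Serpinb2 panel.

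Serpine2, a long gene with 16 windows, was mixed, with 3 windows higher and 5 lower in Sham and 9 lower in PM offspring. A window of its intron (79823221 to 79828884, 33.4% repeated stretches) rose from 56.1 to 61.1% in Sham (5.03 points, limma adjusted p = 0.00456) and differed by -0.569 points in PM offspring (limma adjusted p = 0.755), and the interaction did not pass (limma adjusted p = 0.571). Its start window differed by -0.949 points in Sham and -1.15 in PM offspring and did not pass the test. Serpinf2, alpha-2 antiplasmin, rose in 1 of 3 windows in Sham by 2.59 points (limma adjusted p = 0.0255), a call lost in 4 fits that left out 1 library (adjusted p up to 0.066, without Sham-OVA replicate 2).

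The largest set, the Serpina1, Serpina3, Serpinb1 and Serpinb6 families (22 genes, 70 windows), includes inhibitors of neutrophil elastase, cathepsin G and related granule enzymes. Serpina1f, Serpina3h (annotated as a transcribed pseudogene) and the other pseudogenes of these families are counted with the less studied serpins. In Sham offspring 2 of these windows rose (2.86%, against 13.3% of all windows) and 9 fell (12.9%, against 22.3%), and in PM offspring 1 rose (1.43%, against 9.26%) and 30 fell (42.9%, against 34.8%), with median differences of -1.3 and -1.74 points. Serpinb1a, an intracellular inhibitor of neutrophil serine proteases, fell in both of its windows. Its start window (chromosome 13, 32843147 to 32852176) went from 59.9% ± 1.17 to 56.2% ± 1.25 in Sham (-3.75 points, limma adjusted p = 0.000264) and from 59.1% ± 0.911 to 55.6% ± 1.39 in PM offspring (SD, n = 7 or 8, -3.53 points, limma adjusted p = 0.00027).

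Serpinb6a (13 windows) had 2 windows that rose and 1 that fell in Sham, and 1 that rose and 4 that fell in PM offspring. A sparsely methylated window with 329 untranslated exonic bases (chromosome 13, 33932793 to 33935943) was at 17.8 to 22.4% in Sham (median 20.02%) and 22.3 to 24.4% in Sham-OVA (median 23.1%), and at 18.8 to 22.1% in PM (median 19.7%) and 22.5 to 23.9% in PM-OVA (median 23.4%). Only the PM groups were free of overlap, and the differences were 2.94 points (limma adjusted p = 0.000537) and 3.36 points (limma adjusted p = 6.47e-05). This window also overlaps the transcript 1110046J04Rik. The other rise in Sham was in the window from 33963907 (2.41 points, limma adjusted p = 0.000969), named after its values were seen. The 4 Serpinb6a windows that fell in PM offspring were each above 80% in Sham, and the Serpinb6a start window, at 36.3% in Sham, did not pass the test in either, though with libraries centred it rose by 1.44 points in PM offspring (adjusted p = 0.00629).

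The alpha-1 antitrypsin genes (Serpina1a to Serpina1e) showed the widest spread and few calls. None of the 15 Serpina1b windows passed the test in Sham and 1 fell in PM offspring (-3.91 points, limma adjusted p = 0.0398). The window with the largest SD of all Serpin windows was Serpina1b from 103796060 (SD within groups 9.53 points), in which PM libraries ranged from 40.9 to 61.9% and PM-OVA libraries from 41.2 to 70.4%, and 38.6% of its stretches are repeated. Over all 41 Serpin windows with more than 10% repeated stretches the median SD within groups was 2.21 points, against 1.52 points over the other 181. The part of repeated sequence in this spread was not tested. At the Serpina1a start the means were 63.3, 63.4, 64.3 and 62% in Sham, Sham-OVA, PM and PM-OVA, and neither OVA difference passed the test. Serpina1c fell by 4.68 points in PM offspring (chromosome 12, 103894112 to 103901008, limma adjusted p = 0.000253) and differed by 0.779 points in Sham (limma adjusted p = 0.57). In this Serpina1c window 29.4% of stretches are repeated.

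Among the Serpina3 genes, relatives of alpha-1 antichymotrypsin that are induced in inflammation, Serpina3n fell by 2.98 points at its start in PM offspring (limma adjusted p = 0.0174) and differed by -1.58 points in Sham (limma adjusted p = 0.247). With libraries centred the Serpina3n call was lost (adjusted p = 0.27). Serpina3m, the window from 104389998, fell by 2.64 points (limma adjusted p = 0.0126) and 3.05 points (limma adjusted p = 0.00252), the latter call lost with libraries centred (adjusted p = 0.0888). Serpina3h is annotated as a transcribed pseudogene. Its window (chromosome 12, 104248898 to 104258869) fell by 2.12 points in Sham (limma adjusted p = 0.0346). In PM offspring it changed by -4.98 points (limma adjusted p = 9.37e-06), the widest fall there outside Serpinf1 and Serpinb2. The Sham call of Serpina3h, which is counted with the less studied serpins, was lost in 7 of the fits that left out 1 library, with an adjusted p of up to 0.0928 without Sham-OVA replicate 6, and also with libraries centred (adjusted p = 0.124).

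**Figure D4:**
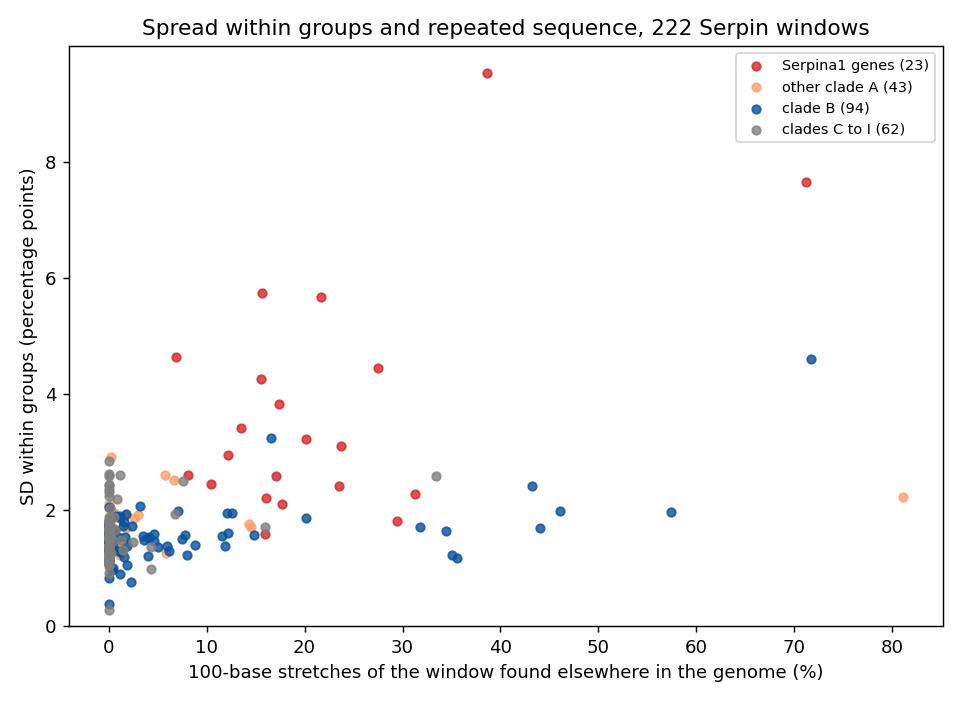
For each of the 222 Serpin windows, the SD within groups (percentage points of %DNAm, vertical axis) is plotted against the percentage of its 100-base stretches found elsewhere in the genome (horizontal axis), coloured by gene family. The widest spread, 9.53 points, is in a Serpina1 window with 38.6% repeated stretches, and most windows with few repeats lie under 3 points.

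The Serpinb9 family inhibits granzymes and protects cells that make or meet them. None of its 16 windows rose in either kind of offspring, 1 fell in Sham (6.25%, against 22.3% of all windows) and 8 fell in PM offspring (50%, against 34.8%). Serpinb9g fell in both windows in PM offspring, by 4.31 points at its start (limma adjusted p = 0.00117) and by 3.67 points further in (limma adjusted p = 0.00396), and the latter fell by 3.08 points in Sham (limma adjusted p = 0.0205, up to 0.0599 without Sham replicate 4). In the Serpinb9g start window 46.0% of stretches are repeated. Serpinb9 itself was at 48.5% ± 1.56 in Sham and 49.1% ± 1.41 in Sham-OVA at its start, a difference of 0.571 points that did not pass the test (limma adjusted p = 0.594). With libraries centred this window passed in PM offspring, at 1.41 points (adjusted p = 0.00857).

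Epithelial clade B serpins (9 genes, 38 windows), which are expressed in squamous and airway epithelia, had 1 window higher (2.63%, against 13.3% of all windows) and 4 lower (10.5%, against 22.3%) in Sham, and 1 higher (2.63%, against 9.26%) and 19 lower (50%, against 34.8%) in PM offspring. Serpinb3a and its relatives inhibit cysteine as well as serine proteases, and Serpinb3a fell in its single window by 2.92 points in Sham (limma adjusted p = 0.0286) and by 3.01 points in PM offspring (limma adjusted p = 0.0166). The Sham call was lost in 4 fits that left out 1 library (adjusted p up to 0.0844, without Sham-OVA replicate 6), and with libraries centred both were lost (adjusted p = 0.0529 and 0.19). Serpinb3b had 9 of 14 windows that fell in PM offspring and 1 in Sham, and the window from 107208828 changed by -4.86 points in PM offspring (limma adjusted p = 0.0121, and 0.0527 with libraries centred). Serpinb13 fell by 2.51 and 2.84 points (limma adjusted p = 0.0203 and 0.00558), the Sham call lost in 2 fits that left out 1 library (adjusted p up to 0.0555, without Sham-OVA replicate 3) and the PM call with libraries centred (adjusted p = 0.0781), whereas Serpinb11 rose by 2.49 points in Sham (limma adjusted p = 0.0173) and Serpinb7 by 1.92 points in PM offspring (limma adjusted p = 0.0217, up to 0.0594 without PM replicate 5). At the Serpinb8 start the differences were 1.62 and 1.1 points (limma adjusted p = 0.103 and 0.245), and with libraries centred both passed, at 2.02 and 2.08 points (adjusted p = 0.0231 and 0.00694).

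The clade I serpins, which include the neuronal inhibitor neuroserpin (Serpini1), had 1 call among 15 windows, a rise in Sham (6.67%, where 35.6% of all windows passed in Sham and 44.1% in PM offspring). The start window of Serpini1, which holds the CpG-rich promoter printed earlier, stayed near 21% in every group. It was at 21.2% ± 0.931 in Sham, 21.4% ± 1.41 in Sham-OVA, 20.9% ± 1.38 in PM and 21.2% ± 1.35 in PM-OVA (SD). The next window (75561466 to 75569668) rose from 78.1 to 82.0% in Sham (3.84 points, limma adjusted p = 0.00115) and differed by 0.939 points in PM offspring (limma adjusted p = 0.364), where with libraries centred it passed at 1.92 points (adjusted p = 0.0387). Among the other or less studied serpins and pseudogenes (26 windows), 1 rose and 3 fell in Sham (3.85% and 11.5%, against 13.3% and 22.3% of all windows) and 1 rose and 9 fell in PM offspring (3.85% and 34.6%, against 9.26% and 34.8%). Serpina4-ps1 fell by 2.82 and 4.75 points (limma adjusted p = 0.00733 and 2.48e-05), and Serpine3 rose in 1 window in each kind of offspring, by 2.17 points in Sham (limma adjusted p = 0.0309, lost in 5 fits that left out 1 library, up to 0.0842 without Sham replicate 7) and in its start window by 2.56 points in PM offspring (limma adjusted p = 0.0115).

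**Figure D5:**
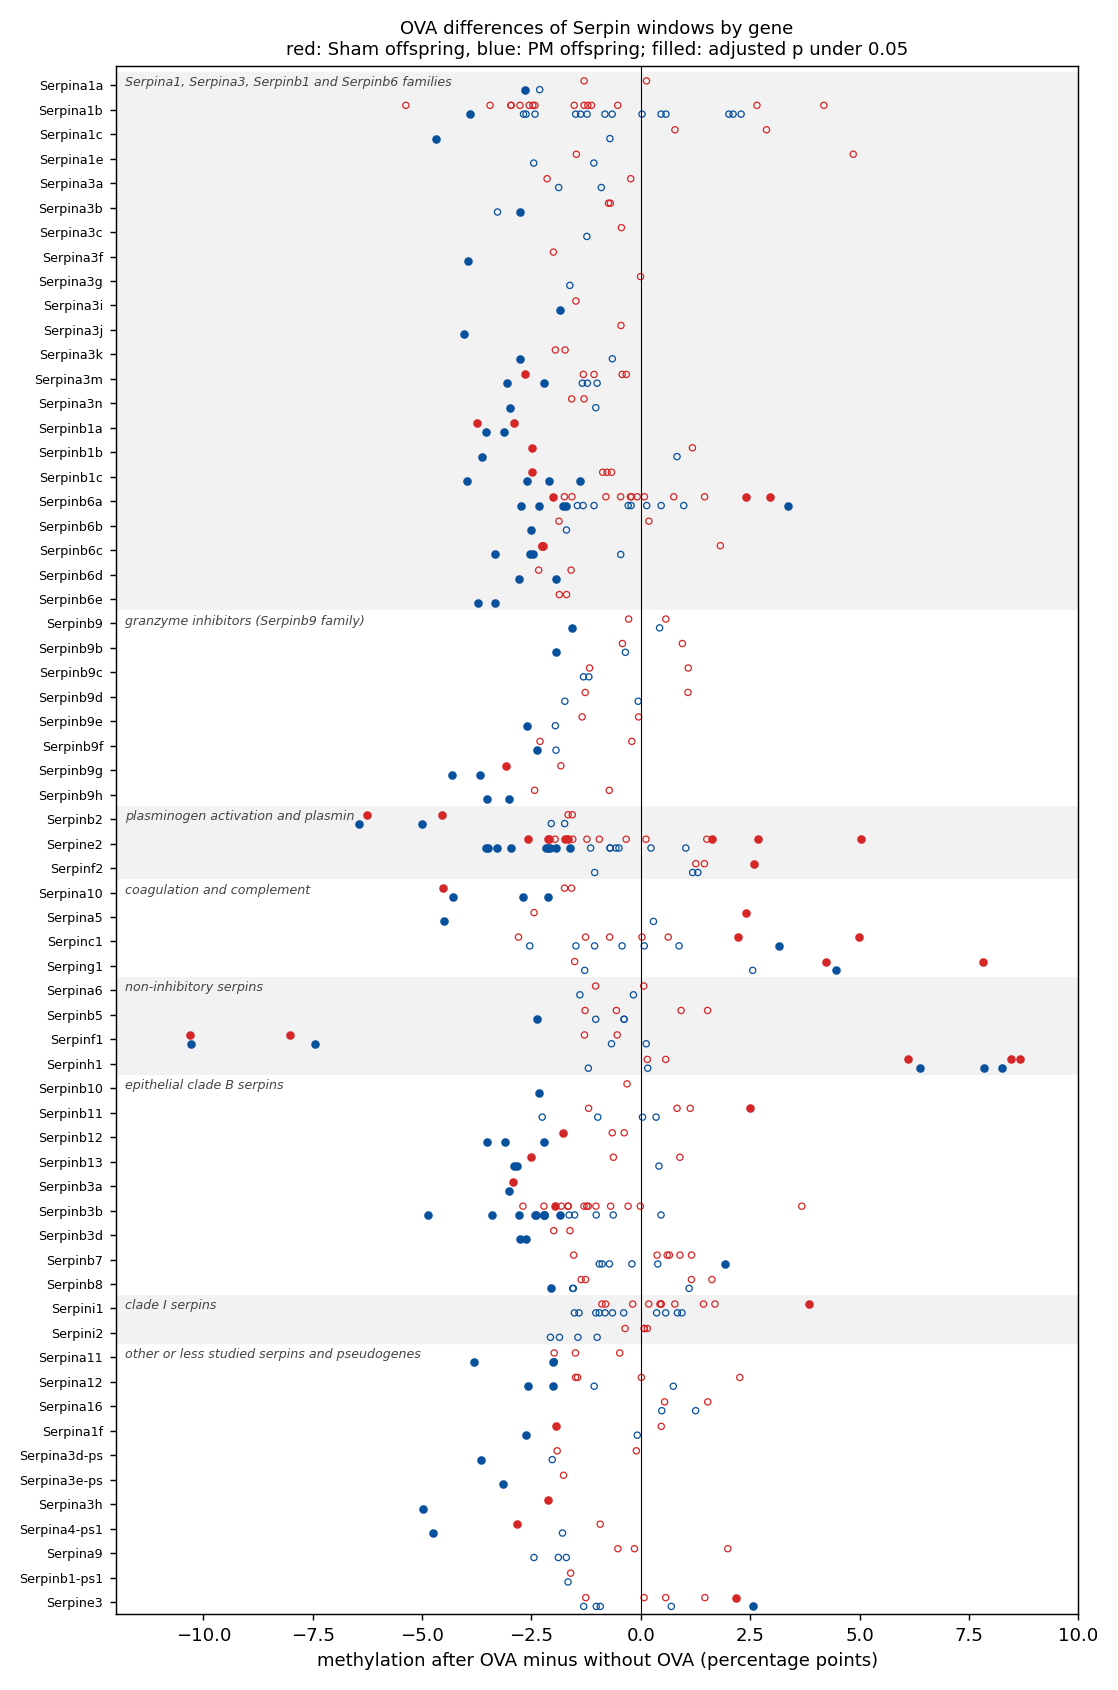
OVA difference (percentage points, horizontal axis) of the windows of the Serpin genes reported here, grouped by role, in Sham (red) and PM (blue) offspring; filled points passed the limma test (adjusted p under 0.05) and open points did not. The filled points furthest from 0 belong to Serpinf1 on the left and Serpinh1 on the right, and more blue than red filled points lie left of 0.

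By gene, 19 of the 64 Serpin genes had a window that fell and 10 a window that rose in Sham offspring, with 2 in both counts. In PM offspring 45 genes had a window that fell and 6 a window that rose, with 1 in both. As shares of the 64 genes these are 29.7% lower and 15.6% higher in Sham and 70.3% and 9.38% in PM offspring, against 47% and 31.8%, and 62.2% and 25.1%, of the 38141 gene names tested, which have 6.8 windows each on average where Serpin genes have 3.47. In total 11 genes had no window that passed the test in either kind of offspring: Serpina16, Serpina1e, Serpina3a, Serpina3c, Serpina3g, Serpina6, Serpina9, Serpinb1-ps1, Serpinb9c, Serpinb9d and Serpini2. Whether Sham and PM offspring differed was tested by the interaction.

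The calls were also counted by starting level. Of the 16 Serpin windows with a Sham mean under 50%, 5 rose and 0 fell in Sham offspring, and 3 rose and 0 fell in PM offspring, where 22.3% of all such windows rose and 7.45% fell in Sham and 18.7% rose and 9.59% fell in PM offspring. Of the 155 windows from 50 to 80%, 10 rose and 17 fell in Sham (15.7% and 19.7% of all such windows), and 4 rose and 60 fell in PM offspring (10.5% and 33.7%). Of the 51 windows at or above 80%, 2 rose and 12 fell in Sham (6.96% and 31% of all such windows), and 1 rose and 25 fell in PM offspring (4.23% and 45.5%). Since the Sham libraries set both the starting level and 1 side of the Sham comparison, that part of the pattern is descriptive. Without Sham replicate 1 the Sham counts were 5 and 0 under 50%, 8 and 16 from 50 to 80%, and 2 and 12 at or above 80%. Among the 58 gene-start windows, 3 rose and 5 fell in Sham (9.41% and 19.3% of all gene-start windows), and 3 rose and 25 fell in PM offspring (6.55% and 31.5%).

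Non-overlap of the libraries was rarer among Serpin windows in Sham and closer to the background in PM offspring. In Sham offspring 5 Serpin windows had groups that did not overlap, 3 higher and 2 lower, where 8.58% of all windows did so (3.15% higher and 5.43% lower). In PM offspring there were 17, with 3 higher and 14 lower, where 12% of all windows did so (1.65% higher and 10.3% lower). Without Sham replicate 1 there were 4 higher and 5 lower in Sham, where 9.54% of all windows did not overlap. With it, the Serpinf1 and Serpinh1 windows account for 4 of the windows in each count.

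Maternal exposure was compared without and with OVA, and the interaction asked whether the OVA difference depended on it. No Serpin window passed the adjusted test in any of these 3 comparisons, and 0 of all tested windows were DMRs. At an unadjusted p under 0.05, limma gave 9 Serpin windows for PM without OVA (4.05%, against 5.79% of all windows), 12 for PM with OVA (5.41%, against 5.96%) and 18 for the interaction (8.11%, against 7.4%). The Serpin windows with the smallest p were in Serpina1b from 103765912 without OVA, which differed by -5.5 points (limma adjusted p = 0.805), in Serpina3h with OVA (-2.98 points, limma adjusted p = 0.786) and in Serpina1c for the interaction (-5.46 points, limma adjusted p = 0.548). In the Serpina1b window 20.2% of stretches are repeated and the window also overlaps Serpina1d.

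The proteases and cofactors that serpins act on were read from the same table. Of 206 windows of 37 such genes, 30 rose and 49 fell in Sham offspring (14.6% and 23.8%), and 25 rose and 77 fell in PM offspring (12.1% and 37.4%), close to the shares over all windows. A window of Ctss, which encodes cathepsin S, was the single DMR, at 80.4% in Sham and 69.5% in Sham-OVA (-10.8 points, limma adjusted p = 4.81e-09), and fell by 9.31 points in PM offspring (limma adjusted p = 1.16e-08).

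Lung tissue is a mixture of cells, and a change in the share of a cell type cannot be told apart here from a change of methylation within cells. Windows of 29 of 30 immune cell genes averaged 66.5 to 67.8% across Sham libraries and 64.9 to 66.1% across Sham-OVA, and 67.1 to 68.2% in PM and 64.9 to 65.7% in PM-OVA, so that the groups did not overlap. Of these 207 windows, 18 were DMRs that fell and 1 a DMR that rose in Sham offspring (0.296% and 0.479% of all windows), and 17 and 1 in PM offspring (0.321% and 0.263%). Windows of 29 of 30 resident lung cell genes averaged 63.6 to 65.1% in Sham and 64.1 to 66.03% in Sham-OVA, and 63.9 to 65.7% in PM and 64.0 to 65.4% in PM-OVA. Of the immune cell windows 42 rose (20.3%) and 75 fell (36.2%) in Sham, where 13.3% and 22.3% of all windows did, and the DMRs that fell belong to 9 genes. In PM offspring 33 rose (15.9%, against 9.26%) and 87 fell (42%, against 34.8%). Of the 326 resident lung cell windows 95 rose (29.1%, 4 of them DMRs) and 45 fell (13.8%, 2 DMRs) in Sham, against 13.3% and 22.3% of all windows. In PM offspring 69 of them rose (21.2%, 1 DMR, against 9.26% of all windows) and 74 fell (22.7%, 2 DMRs, against 34.8%). The part of these cell types in the Serpin differences was not tested.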

How the data were processed

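DNA methylation was measured by whole-genome enzymatic methyl-sequencing in 29 lung libraries. The authors trimmed reads with Trim Galore, called methylation with the DRAGEN pipeline on GRCm38 and deposited percent values, averaged in SeqMonk over windows of 100 CpG positions (both strands) that overlap Ensembl genes. No scaling between libraries was stated, and the library size used in the study's own fit is not part of these values. Depth is unknown here, so no counting intervals are given.

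Percentages were converted to log2((P + 1)/(100 - P + 1)) and fitted by group over all 29 libraries with limma (3.58.1, R 4.3.3), 2-sided, with Benjamini-Hochberg adjustment over 259167 windows with at least 3 values per group. Differences are of group means in percentage points. Replicates are separate labelled samples; whether offspring shared litters is not given, so p-values measure the spread between these samples. Gene features came from GENCODE M21, promoters and sequences from RefSeq (GRCm38.p6), read with pysam 0.24.0 in Python 3.11.15, and figures were drawn with matplotlib 3.10.9. A 100-base stretch counted as repeated if it occurs elsewhere in the genome.

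Windows were named if they were DMRs, were among the 10 widest passing rises or falls after OVA (1 per gene), had the smallest p of another comparison, held the start of a listed gene, or had the lowest mean or widest spread. The windows of 1 gene enter the counts but are not reported here. The members and gene lists were chosen with earlier results of these data known. Alternatives changed the scale, offset, filter, centring, libraries in the fit, replicate block, thresholds and single libraries; levels, counts and level classes without Sham replicate 1, and a fit without PM-OVA replicates 7 and 8, were added after seeing the data. On simulated data made for OVA in Sham over 259167 windows, 194 of 200 windows changed by 12 to 20 points were recovered, with 1 false call. The simulated noise was independent between libraries with no shift of a whole library, and the changed windows were of intermediate methylation. Recovery of smaller differences was not simulated.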

Additional observations from a re-analysis of the deposited data

Results flagged for a closer look

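In 14 of 172 groups of libraries (4 groups in each of 42 named Serpin windows, and the 4 groups' library means over all Serpin windows), 1 library lay further from the rest than Dixon's 95% limit, and chance alone gives about 1 in 20 groups (8.6 here). Among the alpha-1 antitrypsin genes, PM-OVA replicate 3 was at 54.358% in the Serpina1b window from 103765912 (others 43.8 to 47.998%). PM replicate 6 was at 40.885% in the Serpina1b window from 103796060 (others 57.963 to 61.912%). PM-OVA replicate 1 was at 68.356% in the Serpina1c window from 103894112 (others 63.755 to 65.264%).

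Sham replicate 7 was at 64.502% in the Serpina3m window from 104389998 (others 67.104 to 68.664%), and Sham replicate 1 at 66.243% in the Serpina4-ps1 window from 104084559 (others 69.402 to 70.896%). At the Serpina5 start, Sham replicate 6 was at 49.308% (others 50.736 to 51.495%) and Sham-OVA replicate 6 at 58.323% (others 51.95 to 53.37%). Sham-OVA replicate 7 was at 58.912% at the Serpinb1a start (others 55.294 to 56.216%), and PM replicate 1 at 22.077% in the Serpinb6a window from 33932793 (others 18.813 to 19.917%).

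In the nearly unmethylated Serpinb6a window from 34002374, Sham replicate 7 was at 1.252% (others 0 to 0.183%) and Sham-OVA replicate 7 at 1.6084% (others 0 to 0.191%). Sham-OVA replicate 3 was at 67.378% in the Serpinb9g window from 33492232 (others 69.94 to 71.844%). Sham replicate 7 was at 62.547% in the Serpine3 window from 62666499 (others 65.306 to 66.58%). PM replicate 6 was at 62.151% at the Serping1 start (others 65.34 to 67.194%).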

How the results depend on the processing

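The Serpinf1 window stayed the only Serpin DMR of OVA in Sham and in PM offspring on the percent scale, with an offset of 5 points, in windows complete over all libraries, with at least 2 values per group, with only the compared groups in the fit and at an adjusted p under 0.000001. With libraries centred there were 0 DMRs in either, 26 Serpin windows rose and 19 fell in Sham, and 23 rose and 29 fell in PM offspring. The Serpinf1 differences were then -9.91 and -9.31 points (limma adjusted p = 3.02e-06 and 8.38e-06), just under the minimum. With only the compared groups in the fit, 19 windows fell in Sham in place of 29, and the Sham calls of Serpina3h, Serpina5, Serpinb13, Serpinb3a, Serpinb9g and Serpine3 were lost (adjusted p 0.0516 to 0.0898). Centring ended 8 named calls (Serpina10, Serpina3m, Serpina3n, Serpinb13, Serpinb3a and Serpinb3b in PM offspring, Serpina3h and Serpinb3a in Sham) and made 8 others pass, all of them rises (Serpina1b from 103765912, the Serpinb6a start, Serpinb8, Serpinb9, Serpine3 from 62666499, Serpinf2 and Serpini1 in PM offspring, Serpinb8 in Sham). A minimum difference of 5 points gave 8 windows in Sham (3.6%, against 5.96% of all windows) and 7 in PM offspring (3.15%, against 5.89%), and no minimum gave 46 and 93. Leaving out single libraries gave 0 to 1 DMRs in each, 13 to 19 windows that rose and 22 to 35 that fell in Sham, and 6 to 9 that rose and 71 to 90 that fell in PM offspring. No named call that passed the test changed direction in any alternative; sign changes occurred in named windows that had not passed, such as the Serpina1a start in Sham. The depth behind each window is unknown.

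Same-numbered libraries did not deviate together (correlations -0.0718 to 0.0803, 0 of 7 pairs over 0.1 in any pair of groups). Whether animals were paired by litter or processing cannot be told from this. The numbers are those of the sample titles, and some library names carry other numbers. A replicate block gave 1 DMR in Sham and 1 in PM offspring, with 17 windows that rose and 32 that fell in Sham (7.73% and 14.5% of 220 windows complete over all libraries, against 13.5% and 22.6% of all such windows) and 8 and 76 in PM offspring (3.64% and 34.5%, against 8.92% and 33%). No longer past the threshold with the block were the Serpina10 window from 103617494, OVA in PM (-2.66 points, limma adjusted p = 0.0628), and the Serpina5 window from 104093376, OVA in Sham (2.41 points, limma adjusted p = 0.0627), and no other named call changed.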
